A study of Mus musculus with 4 samples.

Results

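A pair of libraries from C2C12 myotubes, 1 titled EPS and 1 titled EPS control, was compared across the 13828 genes, of 45777 listed, that reached a TPM of 1 in either, TPM being a level per transcript length and library total. C2C12 is an established mouse myoblast line whose cells fuse into multinucleate, contractile myotubes when serum is lowered. EPS is not spelt out in the labels and is read here as electrical pulse stimulation, in which current passed through the medium makes cultured myotubes contract. The series holds 4 libraries in all, and the remaining pair is myotubes with clenbuterol, a β-adrenergic drug, and a control for it. All 4 cultures were kept in DMEM with 2% horse serum, and the treatment field reads 30 ng/ml clenbuterol on every record, the EPS pair and both controls included. The sources used here give no pulse settings, time under stimulation or day of differentiation. Each group is 1 library, so no value has a replicate, no test between groups was possible, and differences are given by size only.

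The record titled EPS holds data named for the control, and the record titled EPS control holds data named for EPS. Titles were followed, and the 2 libraries are called the EPS-titled and the control-titled library. Ratios are EPS-titled over control-titled. If the data names are the right ones, every direction given below turns round and every size stays. Expression values were not used to choose between the readings.

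Contraction draws on several programmes that are well known in muscle. Calcium leaves the sarcoplasmic reticulum and binds troponin, ATP is rebuilt from phosphocreatine, glycogen and respiration, and reactive oxygen rises. NRF2, a transcription factor held down by KEAP1, drives genes for glutathione synthesis, quinone reduction, NADPH supply and haem breakdown when oxidants or electrophiles accumulate. NF-κB drives chemokines, acute phase proteins and its own inhibitors, and heat shock factor drives chaperones.

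Estimated counts summed to 35597074 in the EPS-titled library, 32640884 in the control-titled library and 33148483 and 33408083 in the clenbuterol library and its own control. Within the EPS pair 1.8% of genes were at least 2-fold apart in both units used here, against 1.43% within the clenbuterol pair and 2.8% to 3.6% in the 4 comparisons across pairs. Culture pair and treatment cannot be told apart across pairs. The clenbuterol libraries thus serve below mainly to show which member of the EPS pair stood away from the rest. Where the pairs are set against each other as wholes, the values are given and no cause is read from them. The 10 myotube markers were all measured, and their summed TPM was 16057 in the EPS-titled library, 20397 in the control-titled library and 23710 and 23371 in the clenbuterol pair. Mitochondrially encoded transcripts took 3.79% of counts in the EPS-titled and 3.11% in the control-titled library. In bulk RNA, fewer cells of a kind and less RNA per cell cannot be told apart.

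Calls asked for a 2-fold difference both in TPM after adding 1 and in counts scaled by library size (CPM). On that rule 105 genes (0.759%) were higher in the EPS-titled library and 144 (1.04%) were higher in the control-titled library, 249 in all (1.8%). By TPM alone the numbers were 120 (0.868%) and 158 (1.14%), 278 in all (2.01%), and by CPM alone 211 (1.53%) and 312 (2.26%), 523 in all (3.78%). Only 34 of the 105 were protein-coding, against 70 of the 144. By level, 5.37% of genes whose higher TPM lay between 1 and 5 were called, and 0.498% of genes at 100 or more. Among the 11033 genes with a TPM of 5 or more, 36 (0.326%) were higher in the EPS-titled and 63 (0.571%) in the control-titled library. Of the 7150 genes with a TPM of 20 or more, 30 protein-coding genes were called higher in the control-titled library and 4 in the EPS-titled library. Past 1.5-fold in both units, a limit added after the data were seen, were 300 genes (2.17%) in the EPS-titled and 528 (3.82%) in the control-titled direction. Counts within groups of genes given below are to be read beside these shares. Folds below come from CPM, with an exact 95% interval in brackets that covers counting error only.

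**Figure D1:**
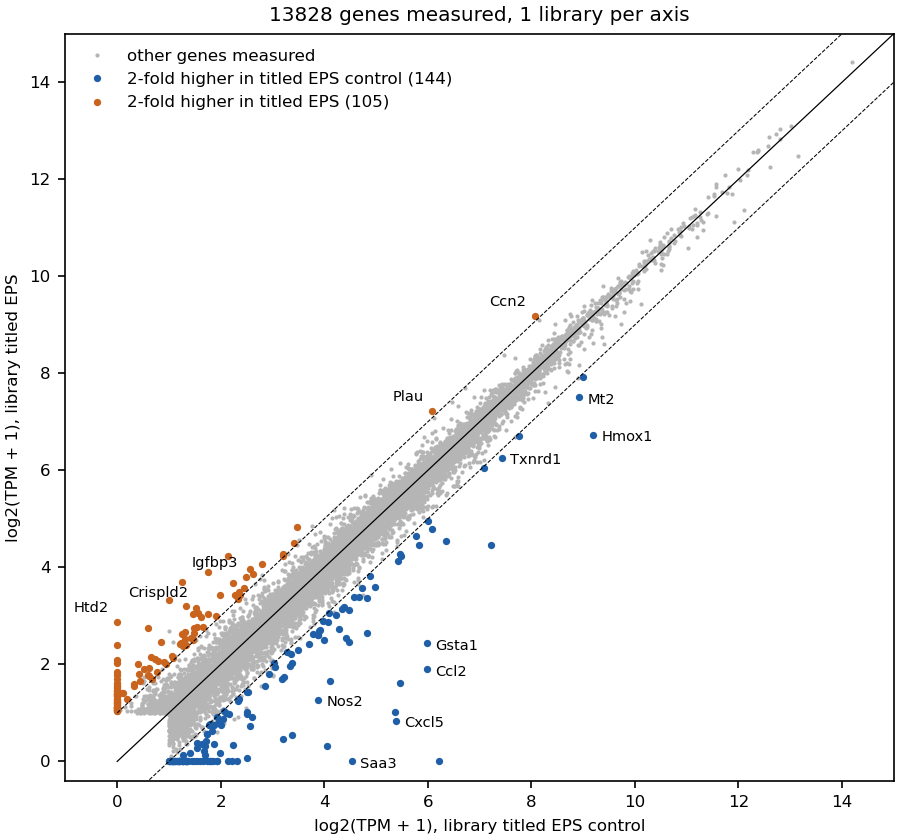
Level of each of the 13828 genes in the control-titled library (horizontal) and the EPS-titled library (vertical), both as log2 of TPM plus 1, with 2-fold limits as dashed lines. Coloured points are the 144 and 105 genes called in both units; the called genes at high level, Hmox1 and Mt2 among them, lie mostly below the diagonal.

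The neutrophil chemokines Cxcl5 and Cxcl1 were among the genes furthest apart. Of 7 neutrophil-attracting chemokines on the list, only Cxcl5 and Cxcl1 reached a TPM of 1, and both were higher in the control-titled library. Cxcl5 counts were 21 in the EPS-titled library, 925 in the control-titled library, 195 with clenbuterol and 23 in the clenbuterol control. Cxcl1, a ligand of the neutrophil receptor CXCR2 like Cxcl5, had 16, 529, 187 and 11 counts in the same order. Both genes were thus high in the control-titled library, intermediate with clenbuterol and low in the other two. They lie in one cluster on chromosome 5 of GRCm38.p6, the assembly behind mm10, with Cxcl5 at 90759298 to 90761625 and Cxcl1 at 90891245 to 90893121. The cluster also holds Cxcl2, Cxcl3, Pf4 and Cxcl15, each at 0 counts in all 4 libraries, and Ppbp, at 0, 14, 8 and 4 counts. A count of 0 allows up to 3 counts, which is 0.083 CPM in the EPS-titled library.

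Of 13 measured members of the other chemokine and receptor genes, Ccl2 and Ccl7 were higher in the control-titled library and none in the EPS-titled library. Ccl2, the monocyte attractant MCP-1, had TPM values of 2.72 (EPS-titled), 62.1 (control-titled), 8.11 (clenbuterol) and 7.82 (clenbuterol control). Its neighbour Ccl7, also a monocyte attractant, stood at 5.29, 27.5, 14.2 and 6.67. Ccl8, in the same stretch of chromosome 11, stood at 4.501, 9.22, 13.0 and 10.7, with a CPM ratio of 2.00 (1.31 to 3.10), and missed the 2-fold limit in TPM. For Ccl8 the EPS-titled library was the low one, while Ccl2 in the control-titled library was also far above both libraries of the clenbuterol pair. Cxcl12, the CXCR4 ligand made by many stromal cells, had a TPM of 154 in both libraries of the pair.

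Cxcl1 is the one chemokine of this group with an entry in the RefSeq promoter table, and its promoter is shown because it holds the letters of an NF-κB site. The motif searched was GGGA followed, after any 4 bases, by CC, on both strands in the 250 bases before each start, and 17.6% of 32851 promoters held it, or 22.2% of 12840 promoters of measured genes. Capitals mark the matches. The stretch is the 120 bases before the start on the plus strand, chr5:90891125-90891244.
Cxcl1: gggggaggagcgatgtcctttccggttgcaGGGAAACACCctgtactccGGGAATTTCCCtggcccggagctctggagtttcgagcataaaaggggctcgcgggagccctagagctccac
Matches start 90 and 71 bases before the transcription start, and the second is read on both strands, shifted by 1 base. Over all called genes in the table, 24 of 74 promoters of genes higher in the control-titled library (32.4%) and 8 of 45 of genes higher in the EPS-titled library (17.8%) held the motif. These shares are descriptions, and no binding was measured. Of the 30 genes with the widest differences (15 in each direction, TPM of 5 or more), 20 had an entry in the table. Of these, 12 held at least 1 of the motifs searched here, which also included antioxidant, heat shock and cyclic AMP response elements. The share of all promoters holding at least 1 of them was not taken, so the 12 have no background beside them. The cyclic AMP element, TGACGTCA, was in 0 of 74 and 0 of 45 promoters of called genes, against 2.53% for measured genes.

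Some acute phase and innate effector genes were also far apart. Of 21 measured, 5 were at least 2-fold higher in the control-titled library and 1, Plau, in the EPS-titled library. Over all genes these shares were 1.04% and 0.759%. Of the 21, 14 (66.7%) lay below 0, against 54.6% of all genes, and 7 above, with a median of −0.34. Their summed TPM was higher in the EPS-titled library, at 2407 against 2019. Saa3, an acute phase apolipoprotein induced in inflamed tissue, had 206 counts in the control-titled library and 0 in each of the other 3. C3, the central complement protein, had TPM values of 0.0926, 2.24, 0.0797 and 0.0268, with a fold of 22.02 (10.9 to 51.9). Ptx3, a soluble pattern recognition protein, stood at 4.70, 15.04, 3.27 and 3.82 and was 3.10-fold higher (2.55 to 3.78). Nos2, which makes nitric oxide during inflammation, stood at 1.42, 13.7, 0.166 and 0. For all 4 genes the control-titled library was the high one. The rest were not level for Nos2, with 92 counts in the EPS-titled library against 10 and 0 in the clenbuterol pair. F3, which starts coagulation as tissue factor, differed from these 4 genes: 4.54, 21.3, 8.42 and 12.1, so that both ends of the order belonged to the EPS pair. Plau, the urokinase gene, ran 148, 66.7, 233 and 155, with the control-titled library low. Ptgs2, which makes prostaglandins, was 1.41-fold higher in the control-titled library (1.33 to 1.48) at 35.9 against 51.8.

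The F3 promoter is shown because F3 is among the 15 widest differences in that direction and holds the same motif. Capitals mark a match to the letters searched. Whether NF-κB binds there, or at other bases of the stretch, was not tested. The stretch is the 120 bases before the start on the plus strand, chr3:121723417-121723536, and a further match lies 228 bases before the start. Besides Cxcl1 and F3, the motif was found among the widest differences in that direction for Gsta1, Gsta2, Gstm1 and Mrvi1. Among those in the opposite direction it was found for Asprv1, Il12a, Fam107a and Myzap, whose promoters are not shown.
F3: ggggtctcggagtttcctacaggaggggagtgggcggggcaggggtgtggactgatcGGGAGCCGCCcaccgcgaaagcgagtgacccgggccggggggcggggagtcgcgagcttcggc

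NF-κB subunits and their feedback inhibitors were shifted by less. None of 25 measured genes reached 2-fold in both units, 4 were past 1.5-fold in the control-titled direction (16%, against 3.82% of all genes), and 0 in the EPS-titled direction (2.17%). The median log2 ratio of TPM was −0.19, with 22 of 25 below 0, where the median over all genes was −0.02 with 54.6% below 0. The subunit genes Rela and Nfkb1 were 1.16-fold (1.09 to 1.23) and 1.13-fold higher in the control-titled library (1.08 to 1.18). Nfkbia, the inhibitor that NF-κB itself induces, had a TPM of 20.7 in the EPS-titled and 41.6 in the control-titled library, 1.96-fold (1.76 to 2.19), with 32.3 and 23.5 in the clenbuterol pair. Bcl3, a nuclear cofactor of NF-κB, was 1.80-fold higher in the control-titled library (1.40 to 2.31), and Zfp36, which destabilises cytokine transcripts, 1.56-fold (1.38 to 1.75). Ikbkg, the regulatory subunit of the IκB kinase, was 2.10-fold higher by CPM (2.00 to 2.197), but its span overlaps G6pdx, itself 1.38-fold higher (1.28 to 1.48), and whether counting used strand is not given in the sources used here. Nfkbiz (19.1 against 18.5), Chuk and Birc2 leaned the opposite way by at most 0.16 on the log2 scale. Of 39 cytokine and growth factor genes measured, 2 were called higher in the EPS-titled library, Il15 and Il12a, and 1, Il1b, in the control-titled library. Past 1.5-fold there were 3 (7.69%) and 4 (10.3%), and 24 of 39 lay above 0, with a median of 0.05. Il15, a myokine that supports lymphocytes, had TPM values of 3.15, 0.884, 6.43 and 4.99, 3.02-fold higher in the EPS-titled library (1.81 to 5.26), with the control-titled library the low one. Il1b stood at 1.37, 4.01, 3.63 and 3.03, 2.86-fold (1.98 to 4.21), with the EPS-titled library low. Il6, the classical contraction-induced myokine, had TPM values of 1.76 and 3.39 in the EPS pair, 1.87-fold higher in the control-titled library (1.19 to 2.99) but far below the 50.4 of the clenbuterol library. Cebpb, a transcription factor of the acute phase response, was 1.77-fold higher (1.60 to 1.96). Interferon-response genes showed no such shift: of 27 measured, 0 were past 1.5-fold in either direction and 18 lay above 0, with a median of 0.07.

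Markers of blood and vessel cells were near 0 throughout. Ptprc, Adgre1, Cd3e, Ly6g, S100a8, Mpo and Aif1 had 0 counts in all 4 libraries, and the 12 immune markers summed to a TPM of 5.18 in the EPS-titled and 4.05 in the control-titled library. Cd68, the one immune marker over a TPM of 1, stood at 4.70 and 3.29. The 8 endothelial markers summed to 0.440 and 0.774, and no member reached a TPM of 1.

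**Figure D2:**
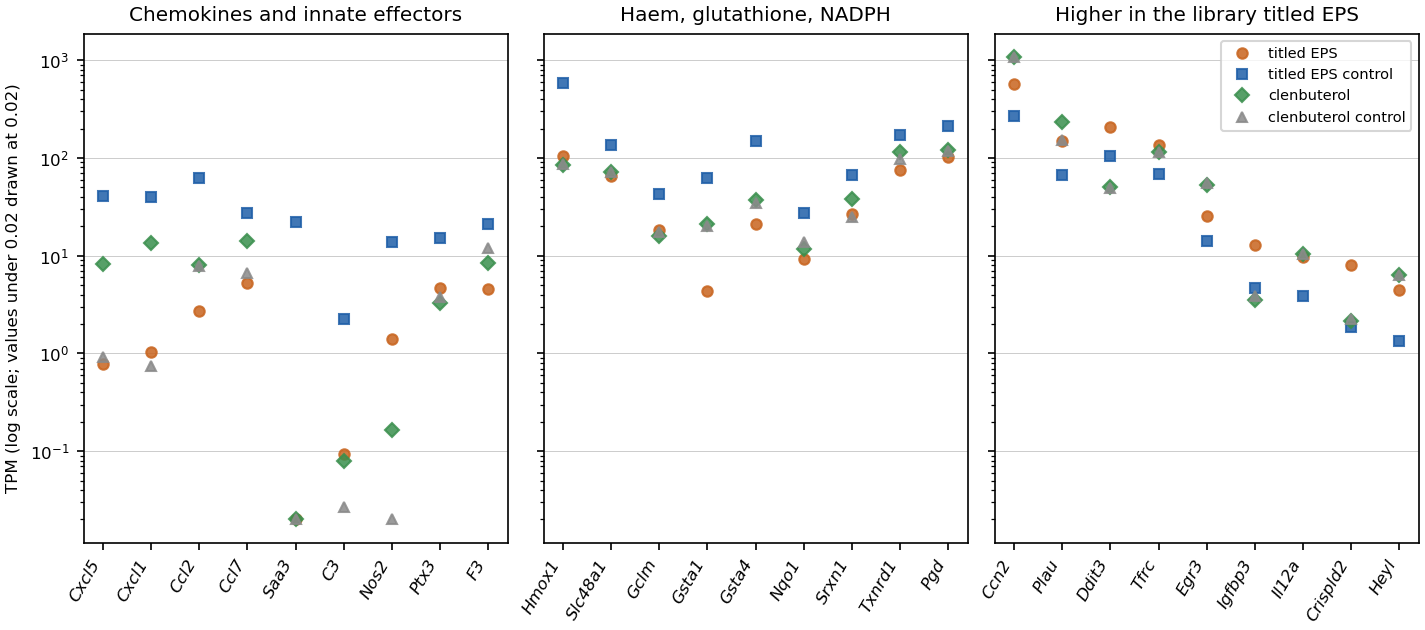
TPM on a log scale in the 4 libraries for 27 genes of 3 groups, each symbol being 1 library. The control-titled library (squares) is the highest of the 4 for all 18 genes of the left and middle panels, and on the right it is the lowest for Ccn2, Plau, Tfrc, Egr3, Il12a, Crispld2 and Heyl.

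Glutathione transferases, which attach glutathione to electrophiles, ranged from wide differences to almost none. Of 17 measured, 5 were called, all higher in the control-titled library, against 1.04% of all genes. Past 1.5-fold were 8 (47.1%) in that direction, against 3.82% of all genes. In the EPS-titled direction 1 (5.88%) was past 1.5-fold, against 2.17%, and the highest log2 ratio of TPM was 0.74. The alpha class on chromosome 9 accounts for the widest ratios. Gsta4, which handles the lipid peroxidation product 4-hydroxynonenal, had TPM values of 21.0, 148, 37.2 and 35.0. Gsta1, Gsta2, Gm3776 and Gm10639 lie from 78230669 to 78347192, next to Gsta4, and as near-identical copies can share reads, so their sum is the safer value. That sum was 99 counts in the EPS-titled library and 1550 in the control-titled library, 17.3-fold (14.2 to 21.5), or 7.16, 130.2, 44.4 and 38.2 in TPM over the 4 libraries. The EPS-titled library was therefore lowest and the control-titled library highest, with the clenbuterol pair between. Gsta3, which lies on chromosome 1 and not in the cluster, had 4 and 9 counts. Gstm1 stood at 22.4, 81.1, 41.8 and 43.1, 3.53-fold (3.17 to 3.93), and Mgst1, a membrane-bound form, at 7.79, 19.3, 13.2 and 10.9, 2.41-fold (1.92 to 3.02). Gstp1 was 1.63-fold higher (1.54 to 1.71). Gsto1, Gstm2, Gstm5, Gstz1 and Mgst3 had log2 ratios of TPM between 0.05 and 0.20, and the list's median of −0.15 moved to −0.04 in CPM and to −0.66 over genes with a TPM of 5 or more.

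The Gsta1 and Gsta2 promoters are shown because both genes were among the widest differences, and they let a reader see how alike the copies are. Each stretch is the 120 bases before the start: Gsta1 on the plus strand at chr9:78230549-78230668, and Gsta2 on the minus strand at chr9:78347146-78347265. The start that the promoter table uses for Gsta2 lies inside the gene span given above. The bases of its stretch up to 78347192 are therefore within that span. Capitals mark a match to the letters searched as the NF-κB motif, which in both stretches lies on the opposite strand. Whether NF-κB binds there was not tested. The 250 bases before each start also held a heat shock element, GAANNTTC or TTCNNGAA, which is not marked.
Gsta1: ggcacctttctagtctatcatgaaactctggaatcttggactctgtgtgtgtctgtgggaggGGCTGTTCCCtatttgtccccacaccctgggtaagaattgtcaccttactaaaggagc
Gsta2: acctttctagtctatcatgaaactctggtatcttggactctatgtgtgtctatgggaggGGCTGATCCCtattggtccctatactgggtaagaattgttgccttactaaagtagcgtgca
Aligned end to end, the 250 bases before the 2 starts were identical at 190 of 266 columns (71.4%). The core of the antioxidant response element, TGACNNNGC, was found in neither window. It was present in 10.2% of all promoters and 11.6% of promoters of measured genes, in 11 of 74 promoters of genes higher in the control-titled library (14.9%) and in 2 of 45 of genes higher in the EPS-titled library (4.44%).

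Of 20 genes that build, use and recycle glutathione, Gclm was called. Past 1.5-fold were 4 (20%) in the control-titled direction, against 3.82% of all genes, and 1 (5%) in the EPS-titled direction, against 2.17%. Gclm, the modifier subunit of glutamate-cysteine ligase, had TPM values of 18.4, 43.0, 15.8 and 17.6, 2.24-fold (2.03 to 2.48). Its partner Gclc, the catalytic subunit, had 18.7, 33.7, 17.6 and 18.2, 1.75-fold (1.62 to 1.90). For both subunits the control-titled library alone was high and the other 3 libraries lay between 15.8 and 18.7. Gsr, which regenerates glutathione, was 1.48-fold higher (1.37 to 1.61), and Abcc1, which exports glutathione conjugates, 1.61-fold (1.54 to 1.68). Esd, which completes formaldehyde removal with glutathione, stood at 238, 476, 289 and 302. Chac1, which degrades glutathione and is induced by ATF4, went the opposite way, 1.61-fold higher in the EPS-titled library (1.499 to 1.72). The peroxidases Gpx1, Gpx4 and Gpx8 lay between 0.03 and 0.19 on the log2 scale.

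The Gclm promoter is shown for its match to the antioxidant response element core, in capitals, on the opposite strand. Gclm was not among the 15 widest differences, and this sequence was chosen after its values were seen. It is the 160 bases before the start on the plus strand, chr3:122245397-122245556.
Gclm: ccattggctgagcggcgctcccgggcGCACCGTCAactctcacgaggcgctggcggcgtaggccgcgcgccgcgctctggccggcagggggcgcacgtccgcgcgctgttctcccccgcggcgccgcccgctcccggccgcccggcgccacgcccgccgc

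The lists of thioredoxin, quinone and drug detoxification, and NADPH supply genes had 2 of 21, 2 of 22 and 1 of 15 called. All were higher in the control-titled library, against 1.04% of all genes. Most members differed little: 2 (9.52%), 4 (18.2%) and 2 (13.3%) were past 1.5-fold in that direction, against 3.82% of all genes. None was past it in the other direction. Above 0 lay 9, 9 and 6, and the medians were −0.11, −0.11 and −0.15. Srxn1, which repairs oxidised peroxiredoxins, stood at 26.7, 66.9, 38.3 and 25.1, 2.44-fold (2.28 to 2.62). Txnrd1, which reduces thioredoxin, stood at 75.9, 171, 114 and 97.9, 2.19-fold (2.11 to 2.27). Nqo1, the quinone reductase often used as the NRF2 readout, stood at 9.34, 27.5, 11.7 and 13.8, 2.87-fold (2.45 to 3.35). Pgd, an NADPH source in the pentose phosphate pathway, stood at 103, 215, 122 and 118, 2.02-fold (1.94 to 2.11), and malic enzyme Me1 was 1.63-fold higher (1.55 to 1.71). For Srxn1, Txnrd1, Nqo1 and Pgd the control-titled library was the highest of the 4. Aldh3a1 differed in that the EPS-titled library was the outlying one, at 2.13 against 16.4, 8.26 and 6.54. Prdx2, Prdx3 and Sesn1 were between 0.10 and 0.15, and Akr1b8, an aldo-keto reductase, was 1.33-fold higher in the EPS-titled library (1.27 to 1.39). Txnip, an inhibitor of thioredoxin, was low in both EPS-pair libraries (4.12 and 5.75) and high in both clenbuterol-pair libraries (93.7 and 98.4).

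NRF2 itself was not among the genes that differed. Nfe2l2 had a TPM of 131 in the EPS-titled and 123 in the control-titled library. Of 11 regulators measured, 0 passed 1.5-fold in both units and 9 were below 0, with a median of −0.30 (−0.19 when counts were scaled by library total). Keap1 was 1.24-fold higher in the control-titled library (1.17 to 1.32), and Sqstm1, the autophagy receptor that competes for KEAP1, 1.30-fold (1.28 to 1.32). Maff, a small MAF partner, was 1.499-fold higher (1.39 to 1.62).

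Haem and iron genes differed in both directions, and 2 of 17, Hmox1 and Slc48a1, were called. Hmox1, which breaks down haem, had 2591 and 12626 counts in the EPS pair and its control-titled TPM of 583 compares with 85.5 to 105 elsewhere. Slc48a1, which moves haem out of lysosomes, stood at 65.0, 135, 71.8 and 71.8, 2.03-fold (1.93 to 2.13). The ferritin chains, which store iron, were also higher in the control-titled library: Ftl1 at 2238 against 3879, 1.69-fold (1.67 to 1.71), and Fth1 at 2635 against 4389, 1.62-fold (1.60 to 1.65). Tfrc, the transferrin receptor that brings iron in, was 2.03-fold higher in the EPS-titled library by CPM (1.96 to 2.10), with TPM values of 135, 68.4, 116 and 116, so the control-titled library was the low one. Slc40a1, the iron exporter ferroportin, was 1.34-fold higher in the EPS-titled library (1.25 to 1.43). Of 17 measured genes 5 were past 1.5-fold in the control-titled direction (29.4%, against 3.82% of all genes). In the EPS-titled direction 1 was past it (5.88%, against 2.17%). Ireb2, Aco1 and Ncoa4 lay within 0.04 of equality on the log2 scale.

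Among the metallothionein and inducible heat shock genes Mt1, Mt2, Hspa1a and Hspa1b, and in most small heat shock genes, the EPS-titled library was the lowest of the 4. Mt2, a zinc-binding scavenger, had TPM values of 181, 483, 426 and 481, and Mt1 had 242, 512, 478 and 553. The copies lie side by side on chromosome 8, and their summed counts were 3710 and 7672, 2.29-fold (2.203 to 2.38). Slc30a1, the zinc exporter regulated with them, was 1.61-fold higher in the control-titled library (1.39 to 1.86), although both libraries, at 3.81 and 6.27, lay below the 13.1 and 15.7 of the clenbuterol pair. Hspa1a and Hspa1b, the inducible HSP70 copies on chromosome 17, summed to TPM values of 30.5, 80.3, 51.8 and 56.2, and to 1338 and 3094 counts, 2.56-fold (2.40 to 2.73). Of 23 small heat shock proteins and co-chaperones 21 were below 0, with a median of −0.16, and the EPS-titled library was the lowest of the 4 for 17 of them. That library was lowest for 26.5% of all genes. Hspb7, Hspb8 and Hspb1, which protect filaments under load, were 1.76-fold (1.66 to 1.86), 1.64-fold (1.60 to 1.69) and 1.57-fold higher in the control-titled library (1.53 to 1.61). Of 30 genes of the HSP70, HSP90 and HSP40 families only the Hspa1a and Hspa1b copies were called, and the median was −0.05. Hsp90ab1 was 1.27-fold higher in the control-titled library (1.25 to 1.28), Hspa9, Tcp1, Cct2 and Cct8 were within 0.12 of equality, and Hspa5, the chaperone of the endoplasmic reticulum, was 1.26-fold higher in the EPS-titled library (1.25 to 1.28).

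The Hspa1a and Hspa1b promoters are shown because the copies cannot be read separately with confidence. They were chosen after their values were seen. Capitals mark a heat shock element, searched as GAANNTTC or TTCNNGAA on both strands and found in 12.8% of all promoters. Both stretches are the 150 bases before the start on the minus strand, Hspa1a at chr17:34972157-34972306 and Hspa1b at chr17:34959239-34959388, and the 250 bases before the 2 starts were 98.8% identical.
Hspa1a: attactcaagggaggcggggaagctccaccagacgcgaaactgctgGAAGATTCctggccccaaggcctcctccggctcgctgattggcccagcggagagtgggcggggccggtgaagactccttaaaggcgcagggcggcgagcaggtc
Hspa1b: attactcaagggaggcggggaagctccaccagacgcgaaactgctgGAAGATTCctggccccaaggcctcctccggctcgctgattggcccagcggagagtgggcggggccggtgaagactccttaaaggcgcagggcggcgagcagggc

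Contractile genes were lower in the EPS-titled library, mostly by less than 2-fold. All 16 measured genes of slow fibres were below 0 in TPM and in CPM, and the EPS-titled library was the lowest of the 4 for all 16. Their median was −0.51, and 5 of 16 (31.2%) were past 1.5-fold, against 3.82% of all genes in that direction. Of 44 Z-disc, M-band and stretch genes 37 were below 0, with a median of −0.43, 12 (27.3%) were past 1.5-fold, and the EPS-titled library was lowest for 33. Of 18 embryonic and developing forms 16 were below 0 (median −0.34), and of 20 fast forms 15 (median −0.17). In these 4 lists only Actn2 and Myh7 passed 2-fold in both units. Summed TPM of the slow genes was 9907 (EPS-titled), 11539 (control-titled), 13236 (clenbuterol) and 13522 (clenbuterol control). In the same order, fast genes summed to 30164.5, 33973, 41069 and 41534. Z-disc, M-band and stretch genes summed to 9335, 10691.5, 13496 and 13720, and embryonic and developing forms to 15023, 16490, 17742 and 17882. In all 4 lists both libraries of the EPS pair thus lay below both of the clenbuterol pair.

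Individual sarcomere genes ranged from a 2.4-fold difference to none. Actn2, a sarcomeric α-actinin of the Z-disc, had TPM values of 17.8, 44.0, 41.5 and 40.3, 2.40-fold (2.21 to 2.61), so the EPS-titled library stood alone. Its fast-fibre relative Actn3 was 1.199-fold higher in the control-titled library (1.18 to 1.22). Myh7, slow myosin, stood at 8.07, 19.8, 13.5 and 12.1. Nrap and Xirp1, which act in myofibril assembly, were 1.78-fold (1.71 to 1.85) and 1.65-fold higher in the control-titled library (1.59 to 1.70), and Tmod1, which caps thin filaments, 1.72-fold (1.63 to 1.81). Acta1, skeletal actin and among the most abundant transcripts, ran 5723, 9090, 8891 and 8270, 1.55-fold (1.54 to 1.56). Ttn, the titin spring, was 1.43-fold higher (1.41 to 1.44) and embryonic myosin Myh3 1.498-fold (1.48 to 1.52). Some abundant contractile genes lay near equality: Mylpf was 1.08-fold higher in the EPS-titled library (1.07 to 1.09), and Tnnc1 1.03-fold (1.02 to 1.04) and Tnni2 1.02-fold higher in the control-titled library (1.00 to 1.04). Light chains were not all alike, since Myl6b was 1.61-fold higher in the control-titled library (1.497 to 1.72). Ankrd1 and Fhl2, stretch-responsive partners of titin, leaned to the EPS-titled library at 1.13-fold (1.11 to 1.14) and 1.31-fold (1.22 to 1.40), while Ankrd2 of the same family was 1.96-fold higher in the control-titled library (1.84 to 2.07).

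**Figure D3:**
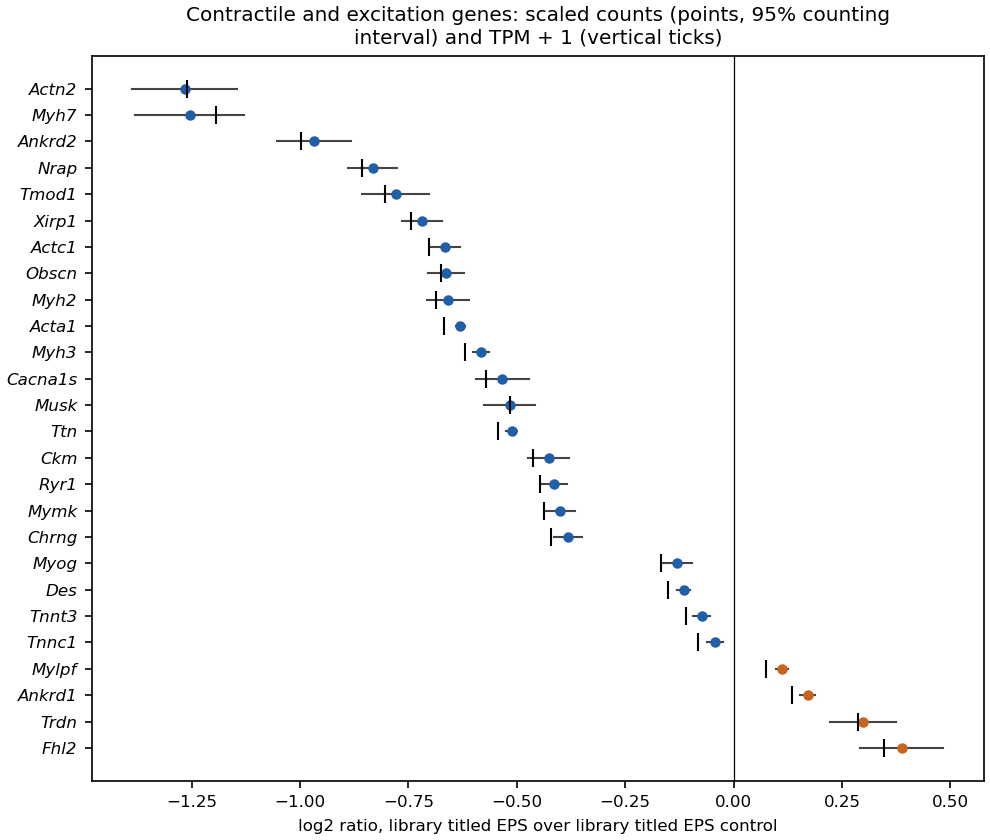
Log2 ratio, EPS-titled over control-titled library, of 26 contractile, excitation and myogenic genes. Points are scaled counts with a 95% counting interval and vertical ticks are TPM plus 1; Actn2 and Myh7 lie beyond −1, and Mylpf, Ankrd1, Trdn and Fhl2 lie above 0.

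Excitation genes followed the contractile ones at smaller size. Of 37 measured, 27 were below 0 (25 in CPM), none was past 1.5-fold, and the median was −0.26. Cacna1s, the voltage sensor of the T-tubule, had a TPM of 40.0 against 59.8, 1.45-fold (1.39 to 1.51), and Ryr1, the calcium release channel it opens, 65.0 against 89.0, 1.33-fold (1.30 to 1.36). Trdn, triadin, which anchors calsequestrin at the release channel, went the opposite way, 1.23-fold higher in the EPS-titled library (1.17 to 1.30). At the neuromuscular junction, 18 of 21 genes were below 0 with a median of −0.26. Past 1.5-fold were 2 (9.52%) in the control-titled and 1 (4.76%) in the EPS-titled direction, and the lowest log2 ratio of TPM was −0.91. Musk, the agrin-signalling kinase, was 1.43-fold higher in the control-titled library (1.37 to 1.49), and Chrng, the fetal acetylcholine receptor subunit, 1.30-fold (1.28 to 1.33). Chrne, the adult subunit, was 1.69-fold higher in the EPS-titled library (1.29 to 2.24) at 6.18 against 3.68. Of 22 sarcolemma pump and channel genes 1, Kcnn3, was called, 1 (4.55%) was past 1.5-fold in each direction, and 16 were below 0. Kcnn3, a small-conductance potassium channel, stood at 5.40, 13.97, 13.1 and 11.02, 2.52-fold (2.29 to 2.77), with the EPS-titled library low. Mrvi1, a partner of cyclic GMP signalling, stood at 0.875, 5.04, 2.08 and 1.45, with the control-titled library highest, and the interval of its fold ran from 3.12 to 5.17. Atcayos stood at 4.82, 20.5, 15.3 and 14.5 and is antisense to Atcay, whose span it overlaps together with that of Nmrk2.

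Myogenic regulators lay on both sides of 0. Of 33 measured, 18 were below 0 and 15 above, with a median of −0.06. Myog was 1.09-fold higher in the control-titled library (1.07 to 1.12), and Mymk, the fusion protein myomaker, 1.32-fold (1.29 to 1.35). On the opposite side were repressors of differentiation: Heyl, a Notch target, at 4.41, 1.34, 6.35 and 6.29, 3.35-fold higher in the EPS-titled library (2.63 to 4.32), Id1 1.90-fold (1.63 to 2.21), Id2 1.70-fold (1.52 to 1.91) and Hes1 1.65-fold (1.501 to 1.81). For each of these 4 genes the control-titled library was the lowest of the 4. Fibroblast markers were even, 4 above and 4 below 0, with summed TPM values of 7392 and 7815. Of 45 cell cycle genes 30 were above 0, with a median of 0.11 and 1 past 1.5-fold, E2f2, at 1.66-fold (1.56 to 1.77).

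Among atrophy genes 17 of 20 were below 0, with a median of −0.22. Fbxo40, a muscle ubiquitin ligase adaptor that targets IRS1, stood at 11.2, 30.5, 18.5 and 19.2, 2.68-fold higher in the control-titled library (2.48 to 2.90). Fbxo32, atrogin-1, was 1.503-fold higher (1.42 to 1.59), whereas Trim63, MuRF1, was at 34.6 and 34.2.

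Most hypoxia genes were higher in the control-titled library, by small amounts. Of 29 hypoxia genes 24 were below 0, with a median of −0.27 (−0.15 in FPKM). Past 1.5-fold were 6 (20.7%), all in the control-titled direction, against 3.82% of all genes. The control-titled library was the highest of the 4 for 21, against 32.9% of all genes. Adm, the vasodilator adrenomedullin, had TPM values of 7.67, 21.3, 4.47 and 2.09, 2.71-fold (2.26 to 3.26). Ndrg1, a stress-induced gene, was at 389, 680, 169 and 152, 1.70-fold (1.67 to 1.74). Both libraries of the EPS pair lay above both of the clenbuterol pair for these genes, and Bnip3, at 259 and 312 against 74.6 and 71.6, did the same with little difference inside the pair. Of 39 glucose uptake and glycolysis genes none was called, 4 (10.3%) were past 1.5-fold in the control-titled direction and 0 in the other, and 27 were below 0, with a median of −0.11. Hk2, which traps glucose as its phosphate, was 1.85-fold higher in the control-titled library (1.78 to 1.92). Slc2a1, the basal glucose transporter, stood at 165 and 317, against 84.6 and 77.8. Pfkfb3, which activates phosphofructokinase, was 1.76-fold higher in the control-titled library (1.58 to 1.95), and glycogen synthase Gys1 1.56-fold (1.52 to 1.62). Vegfa and Hif1a hardly differed, at 229 against 238 and at 149 against 131.

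Respiratory chain and ribosomal genes differed little but in the same direction, higher in the EPS-titled library. All 13 mitochondrially encoded protein genes were above 0, from 0.12 (COX2) to 0.35 (ND5), with a median of 0.22. The control-titled library was the lowest of the 4 for all 13: COX1, a subunit of complex IV, was at 21833, 18728, 21948 and 22615. Of 75 nuclear respiratory chain genes 59 were above 0 (median 0.12), and the control-titled library was lowest for 48. Cytosolic ribosomal protein genes numbered 71 of 76 above 0 (median 0.11), and for 70 of the 76 the EPS-titled library was the highest of the 4. Over all genes, the control-titled library was lowest for 20.2% and the EPS-titled library highest for 27.8%. Summed TPM of the ribosomal genes was 84830 and 78839 in the EPS pair, against 69511 and 69543 in the clenbuterol pair. Both libraries of the EPS pair thus lay above the clenbuterol pair in that sum. No gene of these 3 lists was past 1.5-fold. TPM shares a fixed total within a library, and in CPM the medians were 0.26, 0.15 and 0.15, beside 0.01 over all genes. Tricarboxylic acid cycle genes were even in TPM, with 11 above and 11 below 0, and 15 above and 7 below in CPM.

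**Figure D4:**
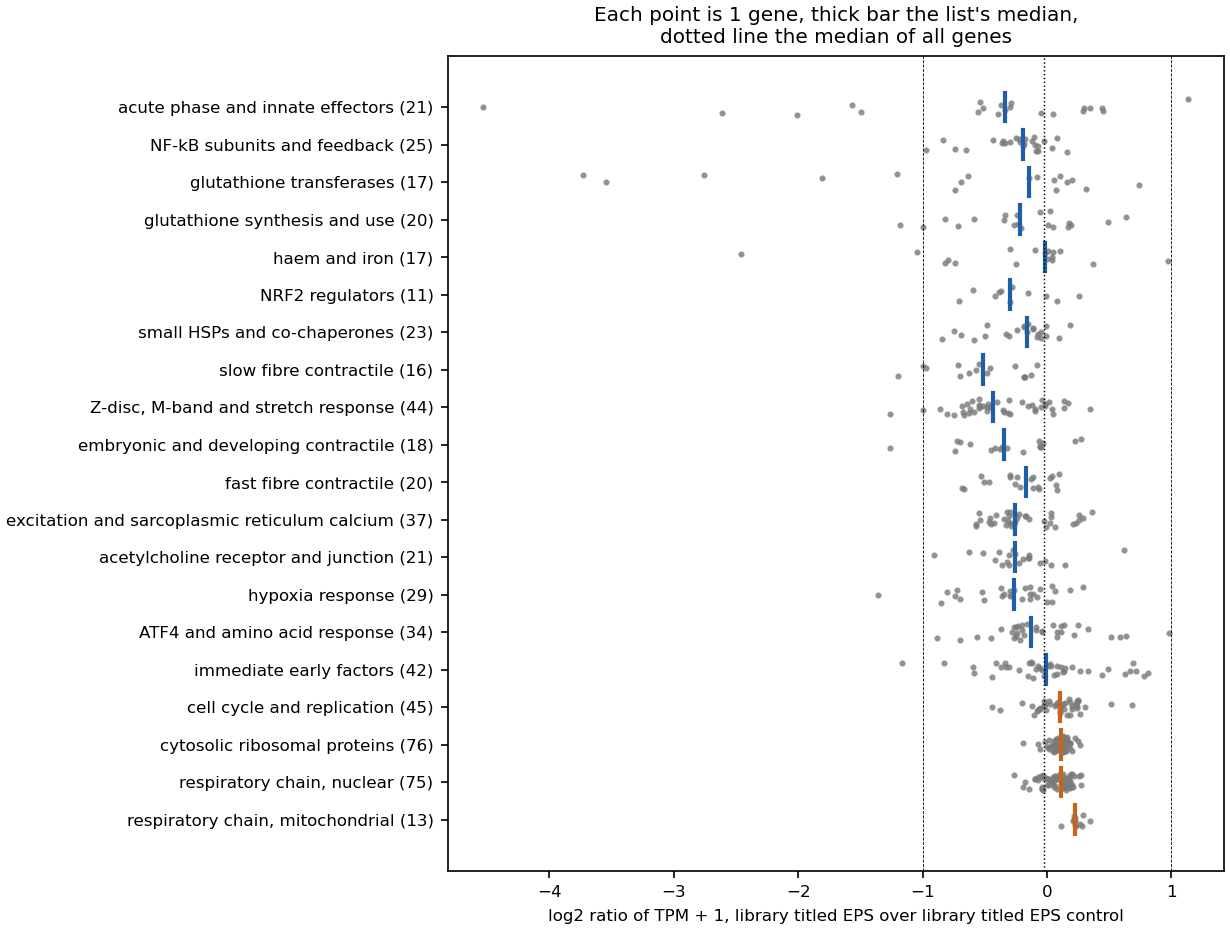
Log2 ratios of TPM plus 1, EPS-titled over control-titled library, for the measured members of 20 gene lists, with the number of genes in brackets. Thick bars are medians, the dotted line is the median of all genes (−0.02) and dashed lines are 2-fold limits; slow fibre genes centre on −0.51 and mitochondrially encoded genes on 0.22.

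Genes higher in the EPS-titled library were fewer. Of these 105, 69 had a TPM of 1 to 5, as did 81 of the 144 in the opposite direction, and the median TPM in the higher library was 3.15 and 3.85. Ccn2, a matrix-associated growth factor induced through YAP and SRF, had the highest level of them, with TPM values of 576, 267, 1085 and 1081. Its relatives in the list of 31 YAP and SRF targets were split, with 17 above 0 and a median of 0.08. Ccn1 was 1.51-fold higher in the EPS-titled library (1.48 to 1.55), and the smooth muscle genes Cnn1 and Myl9 1.63-fold (1.43 to 1.87) and 1.61-fold (1.54 to 1.68). For Ccn2 and Ccn1 the clenbuterol pair lay above both, and for Cnn1 and Myl9, at 4.94 to 5.57 and 136 to 143, below both. Igfbp3 and Crispld2 were high in the EPS-titled library alone. Igfbp3 counts were 500 and 157, with TPM values of 12.9 against 3.55 to 4.65 elsewhere. Crispld2 counts were 520 and 107, with TPM values of 7.98 against 1.88 to 2.26 elsewhere. Insc, Car6 and Lgr6 were 2.56-fold (2.16 to 3.03), 3.24-fold (2.199 to 4.89) and 3.23-fold higher (2.67 to 3.94). Mcpt8, a mast cell protease gene, stood at 27.4, 10.04, 16.5 and 24.8, and Gdpd5 at 18.5, 8.18, 13.6 and 13.6, each with the clenbuterol pair between. For Asprv1, Il12a, Stap2, Fam107a and Myzap the control-titled library was instead the low one, so the clenbuterol pair sided with the EPS-titled library. Htd2 had 245 counts in the EPS-titled library and 0 in the control-titled library, 0 with clenbuterol and 48 in the clenbuterol control, and its locus on chromosome 14 (8080313 to 8091846) overlaps Rpp14, so reads of the 2 may not be separable.

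The list of 34 ATF4 and amino acid genes had none called, 2 past 1.5-fold in each direction (5.88% each) and 21 below 0, with a median of −0.13. Ddit3, the CHOP factor of the integrated stress response, had TPM values of 206, 104, 50.9 and 49.7, 2.09-fold by CPM (1.96 to 2.22), just short of 2-fold in TPM plus 1. Trib3, a pseudokinase, was 1.55-fold higher in the EPS-titled library (1.45 to 1.65) and Atf4 1.29-fold (1.27 to 1.32). Fgf21, a secreted factor induced by ATF4, was 1.82-fold higher in the control-titled library (1.63 to 2.02) at 37.6 against 70.0. Both EPS-pair libraries were above both clenbuterol-pair libraries for Ddit3, Trib3 and Atf4.

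Of 42 immediate early genes 1, Fosl1, was called, 6 (14.3%) were past 1.5-fold in the EPS-titled direction and 2 (4.76%) in the control-titled direction, with 21 above and 21 below 0. The 6 were Egr1, Egr2, Egr3, Dusp6, Spry1 and Ier2. Egr3 was at 25.3, 14.02, 53.5 and 55.7, 1.85-fold higher in the EPS-titled library (1.70 to 2.02), with Egr2 at 1.75-fold (1.54 to 1.98), Egr1 at 1.66-fold (1.59 to 1.74) and Dusp6, a feedback phosphatase of ERK, at 1.81-fold (1.64 to 2.00). The 2 in the opposite direction were Fosl1, at 5.17, 12.8, 10.5 and 9.02, 2.41-fold higher in the control-titled library (1.96 to 2.97), and Fosl2, at 1.74-fold (1.68 to 1.81). Fos stood at 13.4 and 13.3, Jun at 102 and 112, and Junb at 243 and 247 in the EPS pair. Nr4a1, which calcium and cyclic AMP both induce, stood at 12.8 and 19.7, far below the 629 and 97.4 of the clenbuterol pair. Among clock genes, Nr1d1, the repressor REV-ERBα, was 1.82-fold higher in the control-titled library (1.68 to 1.96) while its target Arntl was 1.32-fold higher in the EPS-titled library (1.20 to 1.44).

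Some differences depended on the unit. Inhba, the activin A subunit, was at 58.7 against 28.8 in TPM but 1.11-fold apart in CPM (1.07 to 1.15). Hdac9, a repressor of MEF2, was at 0.874 against 4.04 in TPM and 1.89-fold apart in CPM (1.58 to 2.26). Psma3, a proteasome subunit, was at 199 against 136 in TPM and 1.06-fold apart in CPM (1.01 to 1.10). TPM divides by transcript length and CPM does not, and why the units part for these genes was not tested. Of the 278 genes called by TPM alone, 69 in the EPS-titled and 73 in the control-titled direction had fewer than 20 counts in the higher library, and 50 and 35 were microRNA or small nucleolar RNA loci, which poly(A) libraries measure poorly. Mir155hg, the polyadenylated host transcript of miR-155, had TPM values of 4.25, 0, 1.74 and 2.17.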

How the data were processed

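RNA of 4 C2C12 cultures was taken with ISOGEN and sequenced from strand-specific TruSeq poly(A) libraries, per the labels. Reads were aligned with HISAT2 to mm10, per the submitters' processing notes. The authors deposited estimated counts, FPKM and TPM per gene in 1 joint table, and single tables that matched its TPM to 0.001 except at 1 to 3 genes each. For the counting program, annotation release, use of strand, and choice of mates or fragments, each is not given in the sources used here. If mates were counted, the intervals below are too narrow. Columns were matched to records through the data name each record carries, and groups follow titles.

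Genes were kept when either library of the pair reached a TPM of 1. The value was the log2 ratio of TPM plus a pseudocount of 1, which shrinks ratios of weak genes. Folds came from estimated counts per library total scaled by TMM (edgeR 4.0.16, R 4.3.3), with Clopper-Pearson 95% intervals covering counting error only. A gene was called at 2-fold in both units; a 1.5-fold limit was added after the data were seen. The floor for 0 was 3 counts. Depth was 32640884 to 35597074 counts. Calls were tried on simulated counts that held counting error only, with planted changes wider than the 2-fold limit. That trial held no spread between cultures and planted no change in weak genes. The 62 gene lists hold 1653 genes. Members and lists were chosen with earlier results of these data known, so list counts describe and support nothing independently. The text names the 15 highest and 15 lowest ratios (TPM of at least 5, called in both units, leaving out unnamed loci). The rule also allowed the genes marked as defining a list and up to 4 at each end of a list; of these the text names a part, chosen after their values were seen, as were genes outside the rule. Of 192 defining genes 180 were measured, 3 of which were called higher in the EPS-titled and 24 in the control-titled library, all of them named. In all, 26 symbols turned into dates were restored by gene ID from RefSeq. Promoters, gene coordinates and spans are RefSeq's for GRCm38.p6, with no genome sequence used. Python 3.11.15, numpy 2.4.6, pandas 2.3.3, scipy 1.17.1 and matplotlib 3.10.9 were used, with DESeq2 1.42.0 for an alternative scaling.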

Additional observations from a re-analysis of the deposited data

How the results depend on the processing

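No paired analysis was possible because each group holds 1 library. By TPM, 120 genes were higher in the EPS-titled and 158 in the control-titled library; with a pseudocount of 0.1 these became 220 and 351, with 5 they became 9 and 36, at a TPM of 5 or more 43 and 69, in FPKM 38 and 59, in TMM-scaled counts 211 and 312, in counts scaled by DESeq2 211 and 313, and in counts by library total 220 and 296. In both units at once, 105 and 144 became 184 and 299 with a pseudocount of 0.1, 9 and 35 with 5, 36 and 63 at a TPM of 5 or more, and 32 and 58 in FPKM, and they moved by less than 1.5 times without a filter, with DESeq2 scaling and by library total. The control-titled direction held more genes in all of these settings. The median over all genes ran from −0.03 with a pseudocount of 0.1 to 0.03 in counts by library total. Of 234 values for the 30 genes with the widest differences under these settings, 15 fell below 2-fold (12 of them with a pseudocount of 5, the others in FPKM) and none turned sign. Of 448 list medians, 11 moved by 0.1 or more, and 34 changed sign, all of lists whose median lay within 0.1 of 0. These were the lists of immediate early factors, myogenic regulators, fibroblast markers, haem and iron, large heat shock proteins, tricarboxylic acid cycle, autophagy, TGF-β, collagens, matrix, and p53, so no direction is drawn from those medians. Depth limits mainly the genes under 20 counts, and the spread between cultures was not measured.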

Other observations

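Genes of retinoid handling were called in both directions; they were noticed after the values were seen and no list was made of them. Rarb, a retinoic acid receptor that retinoic acid itself induces, had TPM values of 4.22 in the EPS-titled library, 1.40 in the control-titled library, 1.33 with clenbuterol and 1.34 in the clenbuterol control, 3.02-fold higher in the EPS-titled library. Stra6, which takes retinol up, stood at 2.40, 0.541, 1.86 and 1.83. Aldh1a3, which makes retinoic acid, went the opposite way at 0.690, 2.41, 2.09 and 2.02. For Rarb the EPS-titled library was the high one, and for Aldh1a3 it was the low one.

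Slc7a2 and Slc1a3, which carry cationic amino acids and glutamate, were 2.26-fold and 2.14-fold higher in the control-titled library. Slc7a2 stood at 10.8, 25.4, 11.6 and 10.6, and Slc1a3 at 13.1, 28.7, 12.4 and 9.78, so the control-titled library was the one apart. Hsd11b1, which activates glucocorticoids, stood at 24.1, 53.5, 44.9 and 37.6, and Gpr137b, a lysosomal membrane protein, at 16.5, 42.1, 17.4 and 16.6. Prl2c2, Prl2c3 and Prl2c5, placental proliferin genes of near-identical sequence on chromosome 13, summed to 11 counts in the EPS-titled and 108 in the control-titled library, 10.9-fold (5.84 to 22.4). These genes were also chosen after their values were seen.

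Gm15564, an unnamed locus, had 0 counts in the EPS-titled library, 1292 in the control-titled library, and 0 and 6 in the clenbuterol library and its control, and was left out of the named genes for want of a symbol. Slc16a4, a monocarboxylate transporter of low level, stood at 3.45, 0.570, 2.54 and 2.74, 6.12-fold higher in the EPS-titled library.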
